A study of Homo sapiens with 48 samples.

Results

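The transcripts described here rose when UPF1 was knocked down in human cells carrying only a protein tag, and did not move in cells that also carried wild-type UPF1. They were selected on the measured values of 2 of 8 cell lines. A gene's response in a line was log2 of its mean level after UPF1 siRNA over its mean level after control siRNA, with levels in CPM, the share of a library's counts scaled to 1000000 and 0.5 CPM added to each mean. Genes were kept when their mean over 48 libraries was at least 5 CPM, their response in the tag-only line was 1 or more, and their response in the wild-type line lay between -0.2 and 0.2. Genes with names starting SMG, UPF, SNHG, SRSF, HIST, SLC, LINC or ATF, or holding -AS, were left out. The limits left 103 of 57820 genes, the name filter removed 7, and 96 genes with 95 distinct names remained, since WASH6P is listed as an X and a Y copy.

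The libraries came from 8 stable lines of Flp-In 293 T-REx cells, a derivative of the HEK293 human embryonic kidney line. One line, CLIP, carried the CLIP protein tag alone, and 7 carried the tag fused to UPF1: wild type (WT) or the changes K498A, DE636AA, R843C, A546H, GA-KH or E797R, of which GA-KH is not spelled out in the labels. All lines had their endogenous UPF1 gene, and each was reverse-transfected at 300000 cells with 40 nM of siRNA, either non-targeting (siNT) or directed at endogenous UPF1 (siUPF1), and harvested after 72 h. There were 3 biological replicates per line and siRNA, 16 groups in all, and each variant was represented by a single stable line, so that a variant and its line cannot be told apart.

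UPF1 is an RNA helicase that uses ATP and is central to NMD, short for nonsense-mediated mRNA decay, which removes transcripts on which ribosomes stop early or upstream of an exon junction. Substrates include transcripts with premature stop codons, transcribed pseudogenes, hosts of small nucleolar RNAs and normal stress-response mRNAs, so the pathway also sets the level of many intact genes. K498A changes the ATP-binding lysine of the helicase and DE636AA the paired acidic residues that catalyse hydrolysis. These changes are called the ATPase-motif changes below, and the mean of their responses is called that of the ATPase-motif pair.

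Because several members are known stress-response genes, the promoters of the 96 genes were searched for motifs of the ATF and CREB transcription factor family. Of the 95 names, 50 matched a RefSeq promoter (GRCh38.p14, 250 bases before the gene's start). The cAMP response element TGACGTCA, which reads the same on both strands, was found for 4 of these 50 names. A name was counted if any of its promoters held the element. Of 35116 RefSeq promoters of that length, 1.65% held it. The 4 were GABARAPL1, PPP1R15A, ZFYVE27 and the readthrough locus STAG3L5P-PVRIG2P-PILRB. The core of the amino acid response motif, TGATGNAA on either strand, was found for 0 of 50 names and in 3.14% of all promoters. Counts per name and shares per promoter, the latter not limited to expressed genes, are unlike measures, and no excess is read from them. The promoters of the 3 named coding genes are shown 5′ to 3′ on the plus strand, on which these genes lie, with the element in capitals.
GABARAPL1 (chr12:10212627-10212876): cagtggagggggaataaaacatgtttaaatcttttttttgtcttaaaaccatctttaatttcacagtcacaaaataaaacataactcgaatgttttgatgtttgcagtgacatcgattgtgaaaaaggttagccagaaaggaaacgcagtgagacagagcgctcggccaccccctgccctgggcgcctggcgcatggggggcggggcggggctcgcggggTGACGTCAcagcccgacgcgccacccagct
PPP1R15A (chr19:48872171-48872420): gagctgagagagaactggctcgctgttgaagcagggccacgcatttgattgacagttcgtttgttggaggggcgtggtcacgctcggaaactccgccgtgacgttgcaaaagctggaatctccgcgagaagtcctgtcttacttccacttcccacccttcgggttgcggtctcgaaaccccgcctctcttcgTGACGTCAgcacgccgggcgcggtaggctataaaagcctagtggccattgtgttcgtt
ZFYVE27 (chr10:97736878-97737127): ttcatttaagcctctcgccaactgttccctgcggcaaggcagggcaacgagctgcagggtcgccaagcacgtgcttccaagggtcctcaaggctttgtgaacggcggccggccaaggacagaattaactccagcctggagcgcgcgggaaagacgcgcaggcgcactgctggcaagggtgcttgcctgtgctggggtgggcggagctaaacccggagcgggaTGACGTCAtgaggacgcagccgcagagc
The element's first base lay 30 bases before the start in GABARAPL1, an autophagy gene, 58 in PPP1R15A, a phosphatase subunit gene, and 28 in ZFYVE27, which encodes a protein of the endoplasmic reticulum membrane. These matches describe letters only, and binding was not measured.

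In units of 1000000 expected counts, library totals ran from 21.3 to 47.1. UPF1 fell from 108 ± 3.06 CPM (SD, n = 3) to 23.6 ± 10.5 CPM after siUPF1 in CLIP, and the group means lay between 3920 and 7430 CPM in the other 7 lines, where reads of the transgene and of the endogenous gene are counted together and knockdown of the latter cannot be read. The library CLIP siUPF1 replicate 2 stood apart, with 35.8 CPM of UPF1 against 17.8 and 17.3 in its replicates, and 0.631% of counts from mitochondrial genes against 2.32% and 2.13%. Of 10 HEK293 markers, 9 had a median above 5 CPM, the exception being NEFM at 1.64 CPM. Of 11 markers of other cell types found in the table, 8 were below 1 CPM in every library and the epithelial EPCAM alone had a median above 5 CPM, at 88.4 CPM. In bulk RNA, a change in cell composition and a change in RNA per cell cannot be told apart.

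In the lines that chose them, the 96 genes had a median response of 1.2 in CLIP, up to 2.17, and of 0.06 in WT. Their mean levels over all libraries ran from 5.58 to 199 CPM with a median of 22.3 CPM. The highest CLIP response was that of RP9P, a transcribed pseudogene of RP9 and a commonly measured NMD target, with 6.35, 6.65 and 7.22 CPM in siNT and 37.0, 22.6 and 36.7 CPM in siUPF1. In WT the same transcript had 5.86, 6.72 and 6.95 CPM in siNT and 7.41, 7.61 and 4.09 CPM in siUPF1. Its groups were far apart in CLIP and overlapped in WT, which is what the selection asks for. STC2, a secreted glycoprotein and the most abundant member, had 116, 131 and 143 CPM in siNT and 406, 469 and 503 CPM in siUPF1. In WT it had 145, 155 and 164 CPM in siNT and 139, 134 and 183 CPM in siUPF1. At the edges of the selection, DUSP12 and RAB36 entered with CLIP responses of 1.002 and 1.005, and AC138035.2 and SDHAP1 missed at 0.997. PRKAB2 and GPT2 entered with WT responses of 0.195 and 0.199, while CNPY3 and KLF6 missed at 0.2 and 0.201. GADD45A and CACNB1 entered at WT responses of -0.179 and -0.186, and AC141586.5 and GMPPB missed at -0.206 and -0.224. CIDECP and FAM157A entered at means of 5.58 and 5.78 CPM, and CCT6P3 and VCPKMT missed at 4.99 and 4.89 CPM. Single CLIP siUPF1 libraries set against the siNT mean gave medians of 1.07, 1.4 and 1.13 over the members, and in replicate 2 the lowest member was at -0.2.

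**Figure D1:**
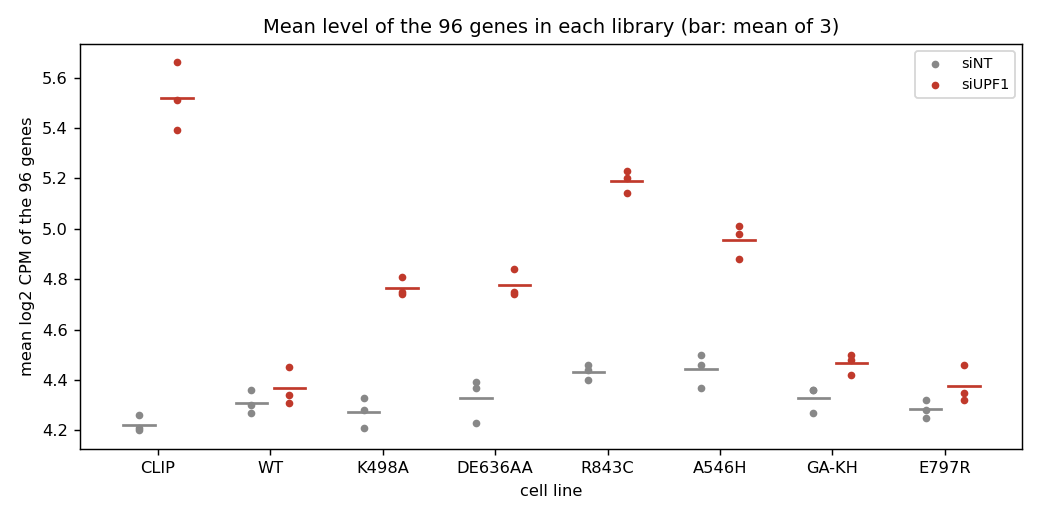
Mean log2 CPM of the 96 genes in each library (y axis) by cell line (x axis), for siNT (grey) and siUPF1 (red), with the mean of 3 libraries as a bar. The siUPF1 means were 5.52 in CLIP, 5.19 in R843C, 4.96 in A546H and 4.37 in WT.

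The 6 lines that the selection did not use separated into 2 kinds. In K498A, DE636AA, R843C and A546H most of the genes rose with siUPF1, and in GA-KH and E797R most did not pass the test. Each response was tested with edgeR's quasi-likelihood model over all genes tested, and the p-values were adjusted by the Benjamini-Hochberg method. Genes with an adjusted p under 0.05 are the ones called here. The shares given for comparison are over the 11924 genes of at least 5 CPM.

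Fold changes from that model, on the log2 scale with TMM scaling, are called log2 fold changes or changes below and differ slightly from the responses defined above. Of the 96 genes, 91 were called higher in R843C against 23.8% of all genes, with a median log2 fold change of 0.74 against 0.04 over all genes. In A546H 77 were called higher (23.1% of all genes), with a median of 0.51 against 0.04. In K498A 67 were higher (20.5%) with a median of 0.50 against 0.01, and in DE636AA 64 (20.7%) with a median of 0.43 against 0.01. In GA-KH 17 were higher (19.5%) and in E797R 15 (21.3%), each with a median of 0.12, against 0.03 and 0.04 over all genes. The counts of the other 4 lines were thus well above the share of all genes called there. In GA-KH and E797R, 17.7% and 15.6% of members were called, near that share. Leaving out 1 library moved these to between 9.38% and 23.8% in GA-KH and between 6.25% and 21.5% in E797R. These ranges include choices of the members made again without a CLIP or WT library. The share of all genes was not computed again for these fits, so the ranges are not set against it.

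Falls were rare among these genes in every line. One gene was called lower in K498A (18.8% of all genes were) and 1 in DE636AA (19.6%), and it was TSR2 both times. None was lower in R843C (16.2%), A546H (16.5%) or GA-KH (15.2%), where 0, 0 and 2 members had a lower value at an unadjusted p under 0.05 in edgeR and DESeq2 called none. In E797R 2 were lower (14.7%), ZFAND2A and TMEM222. The GA-KH count of higher genes was 11 without siNT replicate 1 and 10, 9 and 10 without siUPF1 replicates 1, 2 and 3. The E797R count was 7, 6 and 9 without siNT replicates 1, 2 and 3 and 7 without siUPF1 replicate 2. Without the filter on low counts the counts were 10 in GA-KH and 5 in E797R, and the E797R count was 9 in a fit to the E797R libraries alone. The lower count in K498A was 0 without siNT replicate 3 and 0 without the filter on low counts. In GA-KH it was 1 without siNT replicate 1 or siUPF1 replicate 2, 1 in a fit to the GA-KH libraries alone and 2 without the filter. In E797R it was 0 without siNT replicate 1 or 3 or siUPF1 replicate 1 or 2 and 1 without siNT replicate 2.

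**Figure D2:**
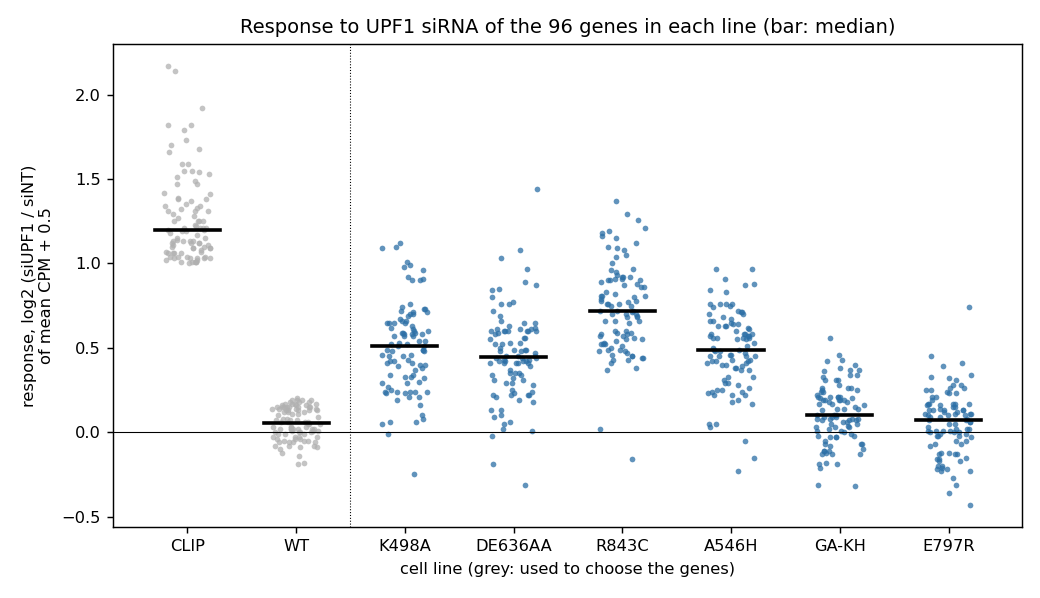
Response of each of the 96 genes (points, with random horizontal spread; log2 of mean CPM + 0.5 after siUPF1 over that after siNT) by cell line, with the median as a bar and the lines used for selection in grey. R843C has the highest median of the 6 other lines, and GA-KH and E797R lie near 0.

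In mean log2 CPM over the 96 genes, siNT and siUPF1 libraries were at 4.43 ± 0.03 and 5.19 ± 0.05 in R843C, 4.44 ± 0.07 and 4.96 ± 0.07 in A546H, 4.27 ± 0.06 and 4.77 ± 0.04 in K498A, and 4.33 ± 0.09 and 4.78 ± 0.06 in DE636AA (SD, n = 3 each). In GA-KH they were at 4.33 ± 0.05 and 4.47 ± 0.04 and in E797R at 4.28 ± 0.04 and 4.38 ± 0.07. Members rarely reached in another line the response they had in CLIP. IBA57, which serves the assembly of mitochondrial iron-sulfur proteins, did so in R843C, and no member did so in the 5 other lines. Members were chosen for a high CLIP response, so lower values elsewhere can come from that choice. No conclusion about the lines is drawn from this comparison with CLIP.

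Members fell into 4 classes by their calls. There were 33 genes higher in all 4 of K498A, DE636AA, R843C and A546H and in neither GA-KH nor E797R, among them RP9P, STC2, PPP1R15A, ZFAND2A, PRKAB2, TFE3, SMOX, U2AF1L4 and TXNL4B. Another 37 were higher in 1 to 3 of those 4 lines and in neither of the other two, among them TSR2, DMPK, TRMT61A, TNPO2 and ZFAS1. There were 23 called higher in GA-KH or E797R, among them GPT2, GABARAPL1, IBA57 and COX19. FBXO41, GADD45A and TRIB3 were called higher in none of the 6. By number of lines, 35 genes were higher in exactly 4, 11 in 5 and 9 in all 6, and 7, 18 and 13 were higher in 1, 2 and 3. The share of all genes with each of these patterns was not computed, so the classes are a description only. In GA-KH and E797R singly, 19.5% and 21.3% of all genes were called higher, so the 23 are not read as a result about these members.

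**Figure D3:**
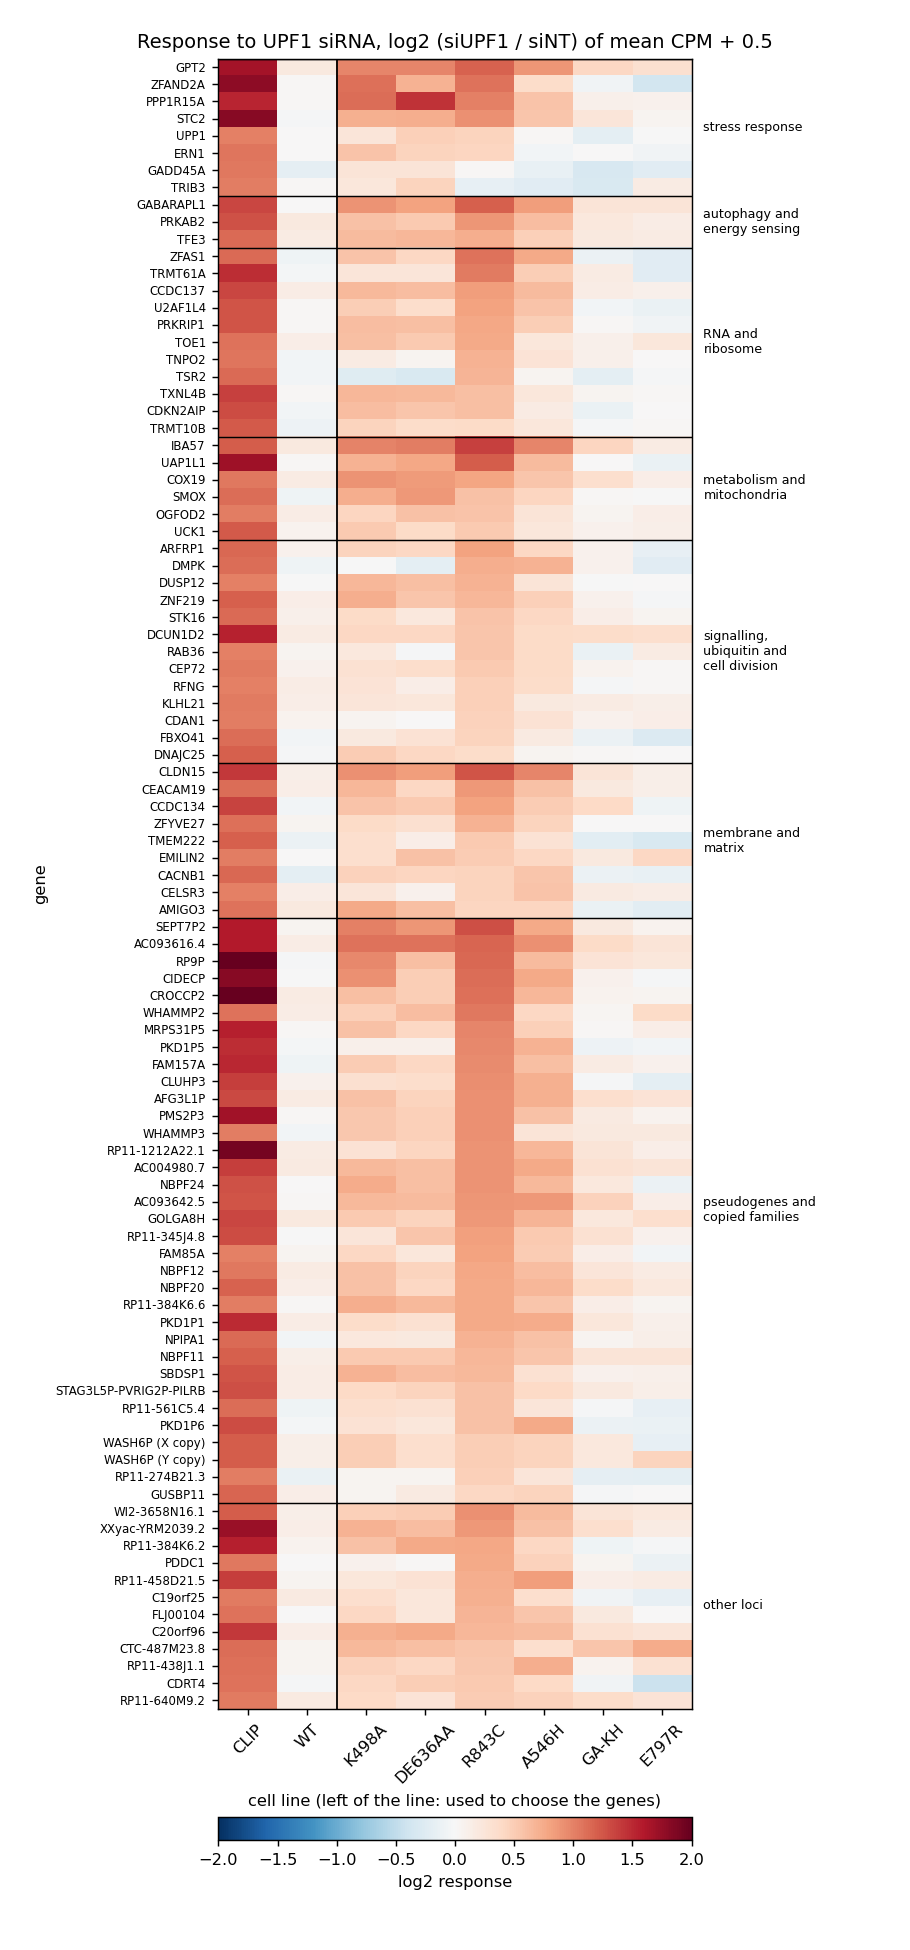
Response to siUPF1 of each of the 96 genes (rows, grouped by role; log2 of mean CPM + 0.5 after siUPF1 over that after siNT) in the 8 lines (columns), from blue for negative to red for positive values. The CLIP and WT columns chose the genes; among the others, the R843C column is the darkest red, with 91 genes called higher, and the GA-KH and E797R columns are pale.

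Members are described by role below, and no role was tested as a set. Of all genes, 23.8% were called higher in R843C, 23.1% in A546H, 20.5% in K498A and 20.7% in DE636AA. In GA-KH and E797R 19.5% and 21.3% were, so small counts there are not read as results about a role. The 8 stress-response genes had unlike medians in the 6 lines. Their median response in R843C, K498A and DE636AA was 0.68, 0.64 and 0.58, and in A546H, E797R and GA-KH it was 0.20, 0.02 and -0.04. Both R843C and DE636AA had 6 called higher, K498A had 5 and A546H had 4. GA-KH and E797R each had 1, and E797R also had 1 called lower. In direct tests none of the 8 differed between A546H and the ATPase-motif pair (4.13% of all genes were higher and 1.69% lower). None differed between A546H and the mean of GA-KH and E797R either (0.419% and 0.0503%). The medians therefore do not place A546H with either pair. PPP1R15A encodes the stress-inducible subunit that directs protein phosphatase 1 to the translation factor eIF2α. In DE636AA it had 54.6, 95.6 and 64.8 CPM in siNT and 163, 232 and 189 CPM in siUPF1. In K498A it had 56.5, 67.3 and 61.8 CPM in siNT and 133, 143 and 129 CPM in siUPF1, and in R843C 83.0, 98.2 and 84.2 CPM in siNT and 172, 193 and 167 CPM in siUPF1. Every siUPF1 library lay above every siNT library in these 3 lines. The log2 fold changes were 1.42 (SE 0.18, adjusted p = 4.5e-08), 1.10 (SE 0.18, adjusted p = 4.69e-06) and 1.01 (SE 0.17, adjusted p = 1.57e-05). In A546H, with 79.0, 97.6 and 101 CPM in siNT and 125, 151 and 138 CPM in siUPF1, the groups did not overlap either, and the change was 0.59 (SE 0.17, adjusted p = 0.00775); without A546H siNT replicate 1 the adjusted p was 0.0671. In GA-KH PPP1R15A had 61.0, 92.1 and 79.3 CPM in siNT and 75.8, 91.7 and 80.8 CPM in siUPF1, and in E797R 68.1, 71.8 and 75.1 CPM in siNT and 66.1, 71.1 and 92.2 CPM in siUPF1. These groups overlapped, and the changes of 0.12 (SE 0.17, adjusted p = 0.662) and 0.14 (SE 0.17, adjusted p = 0.604) did not pass the test.

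STC2 rose in the same 4 lines. Its levels in R843C were 163, 177 and 195 CPM in siNT and 302, 322 and 393 CPM in siUPF1, a change of 0.93 (SE 0.13, adjusted p = 5.42e-07). In K498A and DE636AA the changes were 0.69 (SE 0.13, adjusted p = 7.89e-05) and 0.69 (SE 0.13, adjusted p = 6.65e-05), with means of 128 ± 12.0 to 210.0 ± 23.8 CPM (SD, n = 3) and 134 ± 17.4 to 221 ± 24.2 CPM (SD, n = 3). In A546H it rose by 0.57 (SE 0.13, adjusted p = 0.000748). The GA-KH and E797R groups overlapped, at 0.26 (SE 0.13, adjusted p = 0.141) and 0.09 (SE 0.13, adjusted p = 0.64).

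ZFAND2A, an arsenite-inducible protein that associates with the proteasome, rose in 4 lines and was called lower in 1. It went from 9.44, 8.67 and 10.0 CPM in siNT to 17.9, 19.8 and 24.2 CPM in siUPF1 in K498A, a change of 1.11 (SE 0.13, adjusted p = 7.69e-09), and from 15.5, 16.1 and 16.3 CPM in siNT to 33.8, 31.7 and 37.1 CPM in siUPF1 in R843C, a change of 1.11 (SE 0.12, adjusted p = 3.87e-09). In DE636AA and A546H the changes were 0.69 (SE 0.13, adjusted p = 3.61e-05) and 0.40 (SE 0.12, adjusted p = 0.0119), and the A546H call was lost without 3 of its 6 libraries, siNT replicate 1 and siUPF1 replicates 1 and 2. In E797R ZFAND2A went from 10.5, 11.4 and 10.5 CPM in siNT to 8.64, 8.02 and 8.3 CPM in siUPF1, with all siUPF1 libraries below all siNT libraries. That change of -0.33 (SE 0.13, adjusted p = 0.0465) was lost without any 1 of the 6 E797R libraries, with adjusted p-values up to 0.131. GPT2, a mitochondrial alanine aminotransferase, was called higher in all 6 lines, from 1.19 (SE 0.12, adjusted p = 9.26e-10) in R843C to 0.45 (SE 0.12, adjusted p = 0.0052) in GA-KH and 0.36 (SE 0.12, adjusted p = 0.0226) in E797R. The GA-KH call was lost without siNT replicate 1 or siUPF1 replicate 3, and the E797R call without siNT replicate 1 or 2 or siUPF1 replicate 3.

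ERN1, the IRE1 sensor of unfolded proteins in the endoplasmic reticulum, rose by 0.56 (SE 0.13, adjusted p = 0.00101) in K498A, 0.42 (SE 0.13, adjusted p = 0.0109) in DE636AA and 0.45 (SE 0.13, adjusted p = 0.0077) in R843C. It stood at -0.03 (SE 0.14, adjusted p = 0.88) in A546H. The DE636AA call was lost without siNT replicate 1 or siUPF1 replicate 3 of that line, and the R843C call without siNT replicate 1 or siUPF1 replicate 3 of that one. The uridine phosphorylase gene UPP1 was called higher in DE636AA by 0.47 (SE 0.15, adjusted p = 0.0125) and in R843C by 0.48 (SE 0.15, adjusted p = 0.0105). The DE636AA call was lost without siNT replicate 1 or 3 or siUPF1 replicate 3 (adjusted p up to 0.123) and the R843C call without siUPF1 replicate 2 (0.139).

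TRIB3 and GADD45A were called in no line. TRIB3, a pseudokinase induced in the integrated stress response, had 26.4, 31.0 and 28.7 CPM in siNT and 33.1, 35.3 and 48.6 CPM in siUPF1 in DE636AA, where the groups did not overlap and the change was 0.42 (SE 0.19, adjusted p = 0.081). In R843C it had 33.4, 37.9 and 38.0 CPM in siNT and 28.1, 31.4 and 37.9 CPM in siUPF1, overlapping groups and a change of -0.16 (SE 0.19, adjusted p = 0.569). GADD45A, a growth-arrest and DNA-damage gene and a known NMD substrate, changed by 0.22 (SE 0.13, adjusted p = 0.204) in K498A and 0.22 (SE 0.13, adjusted p = 0.196) in DE636AA. In R843C it stood at 0.03 (SE 0.13, adjusted p = 0.903) and in GA-KH at -0.30 (SE 0.13, adjusted p = 0.0923).

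**Figure D4:**
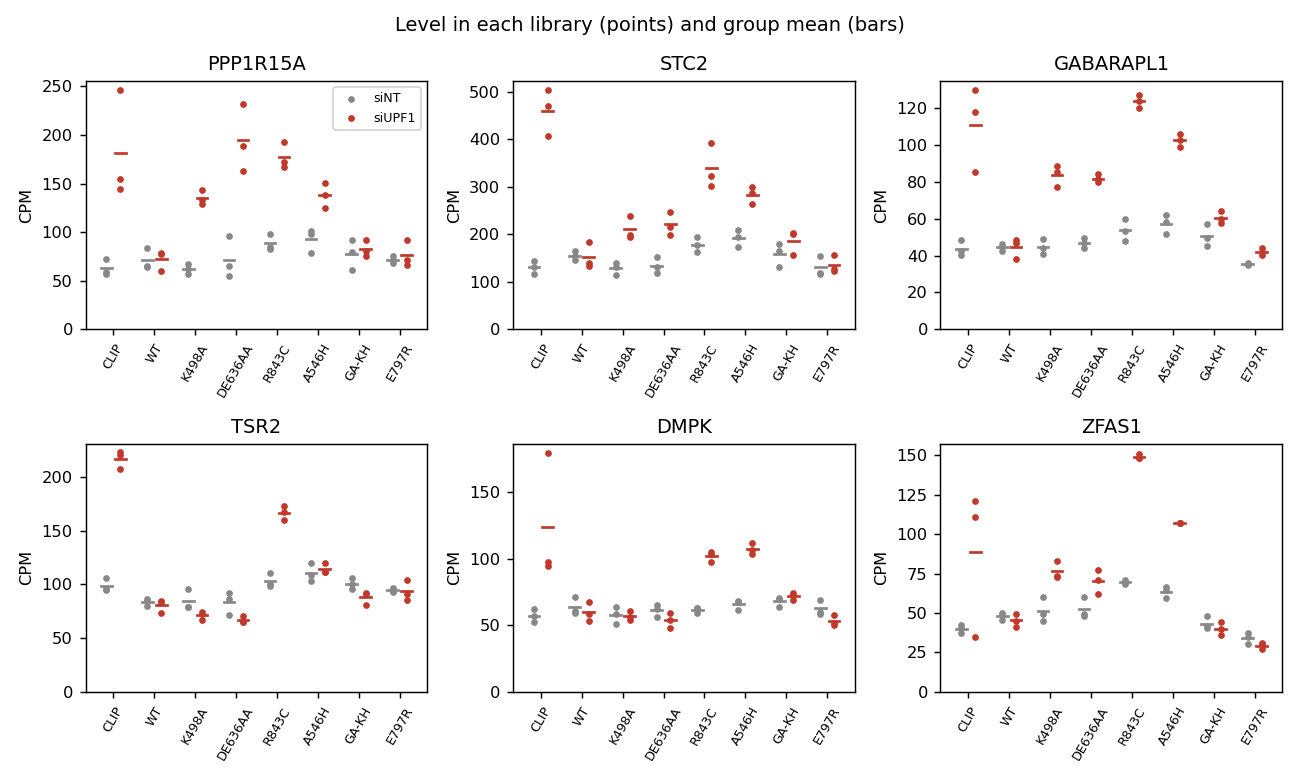
Level in CPM (y axes, from 0) of 6 members in each library by cell line, for siNT (grey) and siUPF1 (red), with the group mean as a bar. PPP1R15A, STC2 and GABARAPL1 rise in K498A, DE636AA, R843C and A546H; TSR2 rises in R843C and DMPK in R843C and A546H; ZFAS1 is called higher in K498A, R843C and A546H.

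The 3 genes of autophagy and energy sensing rose together in K498A, DE636AA, R843C and A546H. GABARAPL1 encodes an ATG8-family protein of the autophagosome membrane and carries the element printed above. In R843C it had 53.6, 60.1 and 47.8 CPM in siNT and 124, 127 and 120.0 CPM in siUPF1, in A546H 51.5, 58.0 and 61.9 CPM in siNT and 103, 106 and 99.0 CPM in siUPF1, and in K498A 44.2, 49.1 and 40.6 CPM in siNT and 85.4, 88.6 and 77.4 CPM in siUPF1. The groups did not overlap in any of these lines or in DE636AA. The log2 fold changes were 1.21 (SE 0.11, adjusted p = 2.62e-11) in R843C, 0.88 (SE 0.11, adjusted p = 3.31e-08) in K498A, 0.86 (SE 0.11, adjusted p = 5.21e-08) in A546H and 0.78 (SE 0.11, adjusted p = 3.21e-07) in DE636AA. In GA-KH and E797R the siUPF1 libraries also lay above the siNT libraries, by 0.28 (SE 0.11, adjusted p = 0.0496) and 0.30 (SE 0.11, adjusted p = 0.0333), and each of these calls was lost in 5 of the 6 fits that left out 1 library of that line, the GA-KH call also with DESeq2. TFE3, a transcription factor of lysosome and autophagy genes, rose by 0.74 (SE 0.10, adjusted p = 3.7e-07) in R843C, 0.64 (SE 0.10, adjusted p = 4.01e-06) in DE636AA, 0.61 (SE 0.10, adjusted p = 9.34e-06) in K498A and 0.49 (SE 0.10, adjusted p = 0.000243) in A546H. PRKAB2, a regulatory subunit of the energy sensor AMP-activated kinase, rose by 0.89 (SE 0.11, adjusted p = 1.54e-08) in R843C and 0.63 (SE 0.11, adjusted p = 1.13e-05) in A546H, and by 0.57 (SE 0.11, adjusted p = 4.99e-05) and 0.51 (SE 0.11, adjusted p = 0.000185) in K498A and DE636AA. Neither TFE3 nor PRKAB2 passed the test in GA-KH or E797R, where their changes lay between 0.20 and 0.24.

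The 11 genes of RNA processing and ribosomes were all called higher in R843C, at 0.40 to 1.11. In K498A 8 were higher and 1 lower, in DE636AA 7 and 1, and in A546H 9 and 0. None was higher in GA-KH and 1, the deadenylase gene TOE1, was higher in E797R, a call lost without siNT replicate 3 or siUPF1 replicate 1 or 2. TSR2, a chaperone that delivers a small-subunit ribosomal protein to the ribosome, had opposite directions in different lines. In R843C it had 100.0, 98.9 and 111 CPM in siNT and 167, 160.0 and 173 CPM in siUPF1, a rise of 0.69 (SE 0.08, adjusted p = 2.71e-08). In K498A it had 78.6, 79.4 and 96.2 CPM in siNT and 66.9, 72.8 and 74.3 CPM in siUPF1, and in DE636AA 86.6, 71.4 and 92.5 CPM in siNT and 65.3, 65.5 and 70.7 CPM in siUPF1. The siUPF1 libraries of both ATPase-motif lines lay below their siNT libraries, with changes of -0.27 (SE 0.08, adjusted p = 0.0109) and -0.34 (SE 0.08, adjusted p = 0.0018). The K498A call was lost without siNT replicate 3 (adjusted p = 0.135) and also without the filter on low counts. In A546H TSR2 had overlapping groups and a change of 0.06 (SE 0.08, adjusted p = 0.61), and in E797R 0.03 (SE 0.08, adjusted p = 0.857). In GA-KH its siUPF1 libraries were below its siNT libraries, at -0.17 (SE 0.08, adjusted p = 0.138), which did not pass.

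ZFAS1, a non-coding host of small nucleolar RNAs, was called higher in 3 lines. Its levels in R843C were 69.7, 70.6 and 68.4 CPM in siNT and 148, 148 and 151 CPM in siUPF1, a change of 1.11 (SE 0.20, adjusted p = 2.64e-05). In A546H they were 59.6, 64.3 and 66.7 CPM in siNT and 107, 107 and 107 CPM in siUPF1, a change of 0.77 (SE 0.20, adjusted p = 0.00239), and in K498A the change was 0.54 (SE 0.20, adjusted p = 0.0305). The K498A call was lost in 4 of 6 fits without 1 of its libraries, siNT replicates 2 and 3 and siUPF1 replicates 1 and 2, with adjusted p-values up to 0.135. In DE636AA ZFAS1 stood at 0.40 (SE 0.20, adjusted p = 0.118). In CLIP, ZFAS1 had 42.3, 40.8 and 37.2 CPM in siNT and 111, 34.8 and 121 CPM in siUPF1, so the siUPF1 replicate 2 library that stands apart lay below the siNT libraries while the other 2 lay above.

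Further members of this group rose in R843C and did not pass the test in the ATPase-motif lines. TRMT61A, the catalytic subunit of a tRNA methyltransferase, went from 30.1 ± 1.9 to 62.6 ± 2.55 CPM (SD, n = 3) in R843C, a change of 1.06 (SE 0.16, adjusted p = 1.66e-06). It changed by 0.22 (SE 0.16, adjusted p = 0.308) in K498A and 0.22 (SE 0.16, adjusted p = 0.303) in DE636AA. TNPO2, a nuclear import receptor, rose by 0.71 (SE 0.07, adjusted p = 5.28e-10) in R843C and 0.29 (SE 0.07, adjusted p = 0.00141) in A546H, and stood at 0.13 (SE 0.07, adjusted p = 0.169) in K498A and 0.04 (SE 0.07, adjusted p = 0.734) in DE636AA. Other members rose in all 4 lines. TXNL4B, related to a protein of the spliceosome, rose by 0.66 (SE 0.07, adjusted p = 6.14e-09) in K498A, 0.65 (SE 0.08, adjusted p = 1.14e-08) in DE636AA and 0.63 (SE 0.07, adjusted p = 1.71e-08) in R843C, and by 0.24 (SE 0.07, adjusted p = 0.013) in A546H. CCDC137 rose by 0.60 to 0.83 in the 4 lines and PRKRIP1 by 0.51 to 0.79. The small splicing factor subunit paralogue U2AF1L4 rose by 0.83 (SE 0.08, adjusted p = 2.63e-10) in R843C and 0.59 (SE 0.08, adjusted p = 3.61e-07) in A546H, and by 0.47 (SE 0.08, adjusted p = 2.29e-05) and 0.34 (SE 0.08, adjusted p = 0.0014) in K498A and DE636AA. The TXNL4B call in A546H was lost without siNT replicate 1 or 2 or siUPF1 replicate 3, and the TRMT61A call in A546H without siNT or siUPF1 replicate 2.

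All 6 genes of metabolism and mitochondria were higher in DE636AA and R843C, 5 in K498A and A546H, 2 in GA-KH and 0 in E797R. IBA57 had 49.3, 48.7 and 52.9 CPM in siNT and 134, 127 and 132 CPM in siUPF1 in R843C, a change of 1.39 (SE 0.11, adjusted p = 3.4e-12) and the highest of any member in the 6 lines except the PPP1R15A change in DE636AA. It rose by 1.01 (SE 0.11, adjusted p = 4.45e-09) in DE636AA, 0.99 (SE 0.11, adjusted p = 7.76e-09) in A546H and 0.97 (SE 0.11, adjusted p = 1.15e-08) in K498A, and by 0.46 (SE 0.11, adjusted p = 0.00169) in GA-KH. COX19, an assembly factor of cytochrome c oxidase, rose by 0.89 (SE 0.07, adjusted p = 4.53e-12) in K498A, 0.84 (SE 0.07, adjusted p = 1.68e-11) in DE636AA and 0.80 (SE 0.07, adjusted p = 3.35e-11) in R843C. UAP1L1 rose by 1.26 (SE 0.22, adjusted p = 1.75e-05) in R843C and SMOX, spermine oxidase, by 0.88 (SE 0.17, adjusted p = 7.25e-05) in DE636AA and 0.61 (SE 0.16, adjusted p = 0.00363) in R843C, the latter call being lost without R843C siUPF1 replicate 3. UCK1, a uridine-cytidine kinase, rose by 0.24 to 0.54 in 4 lines, and its A546H call was lost in 5 of 6 fits without 1 library of that line and with DESeq2.

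Among 13 genes of signalling, ubiquitin and cell division, 12 were higher in R843C, 8 in A546H, 7 in K498A and 6 in DE636AA, and 1 each in GA-KH and E797R. DMPK, the myotonic dystrophy protein kinase, rose in R843C and A546H and did not pass in the ATPase-motif lines. In R843C it had 59.4, 63.4 and 62.8 CPM in siNT and 97.7, 104 and 105 CPM in siUPF1, and in A546H 61.4, 68.7 and 67.8 CPM in siNT and 104, 112 and 107 CPM in siUPF1. These groups did not overlap, and the changes were 0.73 (SE 0.13, adjusted p = 3.36e-05) and 0.72 (SE 0.13, adjusted p = 4.38e-05). In K498A DMPK had 51.0, 58.3 and 63.5 CPM in siNT and 54.2, 56.3 and 60.9 CPM in siUPF1, and in DE636AA 56.5, 65.3 and 62.2 CPM in siNT and 47.9, 59.4 and 54.2 CPM in siUPF1. Those groups overlapped, and the changes were -0.04 (SE 0.13, adjusted p = 0.87) and -0.21 (SE 0.13, adjusted p = 0.226). In the CLIP libraries that chose it, DMPK had 57.1, 62.6 and 52.4 CPM in siNT and 98.0, 180.0 and 94.9 CPM in siUPF1, with replicate 2 of siUPF1 far above the others. DUSP12, a dual-specificity phosphatase, rose by 0.59 to 0.71 in K498A, DE636AA and R843C. DCUN1D2, of the neddylation machinery, rose in all 6 lines by 0.39 to 0.58. KLHL21 and CDAN1 were called higher in R843C alone of the 6, by 0.48 (SE 0.15, adjusted p = 0.0115) and 0.48 (SE 0.14, adjusted p = 0.00483). Their changes in R843C were not called different from those of the ATPase-motif pair, and the KLHL21 call was lost without R843C siNT replicate 3 or siUPF1 replicate 2. The DUSP12 response in A546H, 0.29 (SE 0.11, adjusted p = 0.0375), was lost in 5 of 6 fits that left out 1 of its libraries.

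The 9 membrane and matrix genes had 7 higher in K498A and DE636AA, 8 in R843C and A546H, 2 in GA-KH and 1 in E797R. CLDN15, a claudin of tight junctions, rose by 1.29 (SE 0.10, adjusted p = 1.27e-12) in R843C, 1.01 (SE 0.10, adjusted p = 5.58e-10) in A546H, 0.91 (SE 0.10, adjusted p = 5.94e-09) in K498A and 0.84 (SE 0.10, adjusted p = 2.96e-08) in DE636AA. Its mean level in R843C went from 13.8 ± 0.429 to 33.6 ± 2.72 CPM (SD, n = 3). TMEM222, a transmembrane protein, rose by 0.53 (SE 0.09, adjusted p = 2.08e-05) in R843C and was called lower in E797R, where it had 31.7, 30.6 and 32.1 CPM in siNT and 23.2, 25.5 and 27.5 CPM in siUPF1. That fall of -0.27 (SE 0.09, adjusted p = 0.0286) had groups that did not overlap, and it was lost without siNT replicate 1 or 3 or siUPF1 replicate 1 or 2 (adjusted p up to 0.145). CELSR3, a cadherin of cell polarity, rose by 0.59 (SE 0.14, adjusted p = 0.00126) in A546H and 0.45 (SE 0.14, adjusted p = 0.0119) in R843C and did not pass in the other 4 lines. Its R843C call was lost without R843C siNT replicate 1 or siUPF1 replicate 2 or 3.

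Pseudogenes and copied gene families were the largest group, with 34 members. All 34 were called higher in R843C with a median log2 fold change of 0.91, and 31 in A546H with a median of 0.66. In K498A 24 were higher and in DE636AA 22, with medians of 0.53 and 0.43. In GA-KH and E797R 6 each were higher, near the 19.5% and 21.3% of all genes. CROCCP2, a pseudogene of the rootletin gene, had 65.8, 68.7 and 67.5 CPM in siNT and 136, 143 and 155 CPM in siUPF1 in R843C, a change of 1.11 (SE 0.16, adjusted p = 1.31e-06), and rose by 0.68 (SE 0.16, adjusted p = 0.0012) in A546H. RP9P had 9.7, 8.36 and 9.74 CPM in siNT and 20.9, 20.2 and 22.2 CPM in siUPF1 in R843C and 7.3, 7.52 and 6.62 CPM in siNT and 14.2, 14.3 and 14.7 CPM in siUPF1 in K498A. Its groups were apart in both, at 1.19 (SE 0.14, adjusted p = 1.77e-08) and 0.98 (SE 0.14, adjusted p = 1.09e-06), and it also rose in A546H by 0.69 (SE 0.14, adjusted p = 0.000258) and in DE636AA by 0.61 (SE 0.14, adjusted p = 0.000901). In GA-KH and E797R its siUPF1 libraries lay above its siNT libraries, by 0.33 (SE 0.15, adjusted p = 0.0978) and 0.30 (SE 0.15, adjusted p = 0.137), without passing the test. The polycystin pseudogenes PKD1P1, PKD1P5 and PKD1P6 and NPIPA1 were called higher in R843C and A546H and did not pass in the other 4 lines. In R843C the differences from the ATPase-motif pair were called for PKD1P5 and NPIPA1, and not for PKD1P1 (0.44, adjusted p = 0.372) or PKD1P6 (0.37, adjusted p = 0.466). In A546H none of the 4 differences was called, with edgeR values from 0.42 to 0.66 and adjusted p-values from 0.0569 to 0.349. The PKD1P6 call in R843C was lost without siNT replicate 1 (adjusted p = 0.0645). PKD1P5 rose by 0.99 (SE 0.17, adjusted p = 1.11e-05) in R843C and 0.73 (SE 0.17, adjusted p = 0.000658) in A546H and stood at 0.07 (SE 0.17, adjusted p = 0.788) in K498A. Copies of one family share sequence, so how reads were divided among them, and among copies outside the 96, is uncertain. For WASH6P the responses in E797R were -0.16 for the X copy and 0.45 for the Y copy, and 0.18 when the copies were added. Both listings count as separate members here, and their split in E797R is not read as a difference between copies. The 12 remaining loci, mostly named by clone, had 11 higher in R843C, 9 in A546H, 8 in K498A, 7 in DE636AA and 4 each in GA-KH and E797R.

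Differences between lines were tested directly, with 7 contrasts of responses, 3 of which share the GA-KH and E797R libraries and 2 the ATPase-motif libraries as their reference. The response of the ATPase-motif pair was higher than the mean response of GA-KH and E797R in 44 of 96 genes (5.88% of all genes) with a median difference of 0.35, and lower in none (8.89% of all genes; 1 member at an unadjusted p under 0.05, none with DESeq2). The widest differences were 1.13 (SE 0.17, adjusted p = 1.35e-05) for PPP1R15A and 1.09 (SE 0.13, adjusted p = 9.19e-08) for ZFAND2A. R843C exceeded the GA-KH and E797R mean in 60 genes (3.46%) with a median of 0.62, and was lower in none (0.604%; no member at an unadjusted p under 0.05, none with DESeq2). The widest were 1.30 (SE 0.15, adjusted p = 3.9e-07) for ZFAND2A, 1.29 (SE 0.27, adjusted p = 0.00241) for UAP1L1 and 1.24 (SE 0.24, adjusted p = 0.00117) for ZFAS1. A546H exceeded that mean in 9 genes (0.419%) with a median of 0.42, among them CLDN15, DMPK, U2AF1L4 and IBA57, and was lower in none (0.0503%; none at an unadjusted p under 0.05, none with DESeq2). The A546H count was 3, 3, 5, 5 and 3 without A546H siNT replicates 1 and 2 and siUPF1 replicates 1, 2 and 3, 5 without E797R siNT replicate 1, 17 with DESeq2, 17 with a fit to the compared lines alone and 28 without the filter on low counts. Of 18 fits without 1 library, 6 lost the DMPK call and 5 the IBA57 call.

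R843C was also set against the ATPase-motif pair. In 15 genes the R843C response was higher (4.47% of all genes), with a median difference of 0.30 over the 96, and in none was it lower (0.998%; 1 member at an unadjusted p under 0.05, none with DESeq2). TSR2 differed by 1.00 (SE 0.10, adjusted p = 7.91e-08), DMPK by 0.85 (SE 0.16, adjusted p = 0.00088), TRMT61A by 0.84 (SE 0.20, adjusted p = 0.00741) and TNPO2 by 0.62 (SE 0.09, adjusted p = 1.29e-05). Of the 15, 8 were pseudogenes or copied families, a group of 34 among the 96 members, and included PKD1P5, CLUHP3 and NPIPA1. None of the 8 stress-response genes, 3 autophagy and energy-sensing genes or 6 metabolism and mitochondria genes was among the 15. With 4.47% of all genes called, no call in groups this small is not read as a result about a role. Differences of the stress-response genes ran from -0.47 for TRIB3 to 0.24. The count was 9, 9 and 8 without R843C siNT replicates 1, 2 and 3 and 8 each without siUPF1 replicates 2 and 3. A546H exceeded the ATPase-motif pair in 3 genes (4.13%), DMPK by 0.84 (SE 0.16, adjusted p = 0.00103), RP11-458D21.5 and TSR2, the last of which was lost in 12 of 18 fits without 1 library, and was lower in 1 (1.69%), TXNL4B, at -0.42 (SE 0.09, adjusted p = 0.00396). The higher count was 1 without A546H siNT replicate 1 or siUPF1 replicate 3 and 5 without DE636AA siNT replicate 1. The lower count was 6 with DESeq2, 4 with the RLE scaling, 5 with a fit to the compared lines and 3 without the filter. It was 4 and 2 without A546H siNT replicates 1 and 3, 2 without A546H siUPF1 replicate 1, 2 each without DE636AA siNT replicates 2 and 3 and each DE636AA siUPF1 replicate, 2 without K498A siNT replicate 2, and 3 and 2 without K498A siUPF1 replicates 1 and 3.

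**Figure D5:**
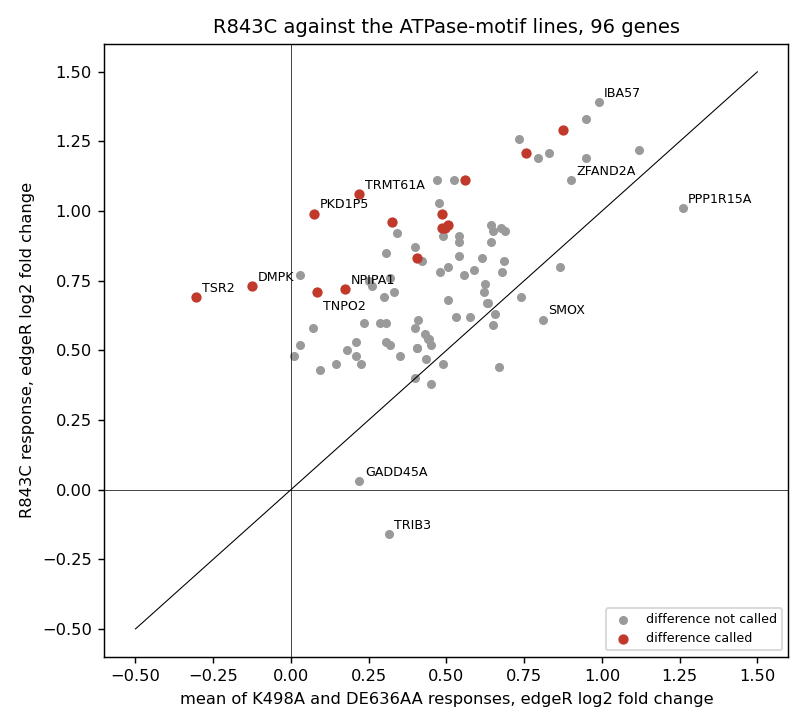
R843C log2 fold change (y axis) against the mean of the K498A and DE636AA log2 fold changes (x axis) for the 96 genes, with the 15 genes called different in red and the line of equal response in black. TSR2, DMPK, PKD1P5, TRMT61A and TNPO2 lie well above the line, and TRIB3 lies below it at -0.16 on the y axis.

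Between K498A and DE636AA no member was called different in either direction, as for 0% of all genes higher and 0% lower. The largest member difference was 0.47, 2 members had an unadjusted p under 0.05, and DESeq2 called none. Between GA-KH and E797R no member was called either (0% higher and 0% lower), the largest difference was 0.50, 2 members had an unadjusted p under 0.05 and DESeq2 called none.

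With control siRNA few members were called different between lines. The shares called higher in R843C and A546H were nevertheless above those of all genes. Against the GA-KH and E797R pair, 73 of 96 members lay above 0 in R843C and 73 in A546H. Median differences were 0.11 and 0.12, against 0.02 and 0.01 over all genes. The share of all genes above 0 was not counted, and both comparisons used the same GA-KH and E797R siNT libraries, so they are not independent. In siNT libraries the ATPase-motif pair was higher than the GA-KH and E797R pair in 2 genes (4.34% of all genes), ZFAS1 by 0.44 (SE 0.14, adjusted p = 0.0491) and GADD45A by 0.30 (SE 0.09, adjusted p = 0.048). It was lower in 7 (4.02%), among them IBA57 at -0.31 (SE 0.08, adjusted p = 0.0153) and TSR2 at -0.21 (SE 0.06, adjusted p = 0.0304). R843C siNT was higher in 5 genes (0.344%), ZFAS1 by 0.88 (SE 0.17, adjusted p = 0.00704), ZFAND2A by 0.56 (SE 0.11, adjusted p = 0.00704), RP9P, DUSP12 and TXNL4B, and lower in none (0.0419%; 2 at an unadjusted p under 0.05, none with DESeq2). A546H siNT was higher in 7 (0.52%), TXNL4B by 0.47 (SE 0.06, adjusted p = 4.53e-05), COX19 by 0.36 (SE 0.06, adjusted p = 0.00206), ZFAS1, ZFAND2A, GABARAPL1, DUSP12 and U2AF1L4, and lower in none (0.134%; 3 at an unadjusted p under 0.05, none with DESeq2). ZFAS1 and ZFAND2A were thus higher with control siRNA in both R843C and A546H. ZFAS1 siNT libraries were at 69.7, 70.6 and 68.4 CPM in R843C and 30.6, 34.7 and 37.5 CPM in E797R, with no overlap.

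These siNT counts depended on single libraries. The 2 higher genes of the ATPase-motif pair were 0 without any 1 K498A siNT library, DE636AA siNT replicate 2 or 3, E797R siNT replicate 1 or 2, or GA-KH siNT replicate 1 or 3. They were 4 without DE636AA siNT replicate 1, and 1 with RLE scaling. The 7 lower ones were 0 without DE636AA siNT replicate 2 or GA-KH siNT replicate 1 or 3, 1 without E797R siNT replicate 1 or 2, 2 without K498A siNT replicate 1, 4 without DE636AA siNT replicate 3, and 3 without the filter on low counts. The R843C count was 0 without its siNT replicate 1 or 2, 2 without replicate 3, 3 without E797R or GA-KH siNT replicate 1, 10 with DESeq2 or without the filter and 11 with a fit to the compared lines. The A546H count was 4 and 1 without its siNT replicates 1 and 3, and 4 without E797R siNT replicate 1 or 2 or GA-KH siNT replicate 1.

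Genes of these pathways, members included, were counted from lists chosen by their textbook roles. The members in them were chosen for a rise in CLIP, so these counts are not independent of the selection. Counts are given for R843C, A546H, K498A, DE636AA, GA-KH and E797R in that order, in which 23.8%, 23.1%, 20.5%, 20.7%, 19.5% and 21.3% of all genes were called higher and 16.2%, 16.5%, 18.8%, 19.6%, 15.2% and 14.7% lower. Of 24 commonly used NMD target genes, 5 are members: RP9P, GABARAPL1, ERN1, UPP1 and GADD45A. Of all 24, 15, 9, 10, 13, 3 and 3 were called higher and 2, 2, 3, 3, 2 and 2 lower. Their median log2 fold changes were 0.39, 0.16, 0.23, 0.34, -0.09 and -0.04. Of 15 NMD factor genes, none of them members, 7, 7, 5, 5, 2 and 1 were called higher and 0, 3, 2, 2, 4 and 5 lower. Of 20 snoRNA host genes, with ZFAS1 a member, 11, 6, 7, 5, 2 and 3 were called higher and 3, 3, 2, 2, 3 and 2 lower. Names starting SMG, UPF or SNHG were left out of the selection, so which genes of these lists are members was partly set by name. SMG1 met the numeric limits, with responses of 1.49 in CLIP and -0.01 in WT. Of 29 tested genes of the ATF4 list, with PPP1R15A, STC2 and TRIB3 as members, 10, 9, 10, 14, 5 and 8 were called higher and 5, 3, 3, 3, 4 and 2 lower. Of 20 autophagy genes, with GABARAPL1 and TFE3 as members, 13, 10, 9, 9, 10 and 10 were called higher and 1, 1, 3, 2, 0 and 1 lower. Of 17 unfolded-protein-response genes, with ERN1 a member, 6, 5, 8, 10, 6 and 9 were called higher and none lower in any of the 6. The 7 genes removed by name (SMG1, SNHG5, SNHG7, SNHG8, SNHG11, EPB41L4A-AS1 and SLC25A38) had 6 called higher in R843C and DE636AA, 5 in K498A, 3 in A546H and none in GA-KH or E797R.

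Annotation gave features that the selection did not use. Of the 96 genes, 85 matched GENCODE 29 by identifier, and 24 of these (28.2%) were pseudogenes, against 2.03% of other genes of at least 5 CPM and 3.78% of other genes with a CLIP response of 1 or more. Both WASH6P listings were matched to the same entry and are each counted. The 57 matched coding members included 22 (38.6%) with an annotated NMD transcript, against 44.9% of other coding genes of at least 5 CPM. A junction over 50 bases after the stop codon was found in 3 coding members (5.26%) and in 3.38% of the others. Of the matched members, 56 overlapped another gene and 45 lay opposite one on the other strand, so some counts may hold reads of a neighbour. Overlap is not given for other genes, so it cannot be called particular to the members. No test was made of these shares.

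Membership moved with the libraries that chose it, in particular CLIP siUPF1 replicate 2. Without that library 70 genes met the limits, 61 of them among the 96, and 35 of the 96 were lost, DMPK, TNPO2, TRIB3, GADD45A and UPP1 among them. The part of that library's lower mitochondrial share and higher UPF1 level in the selection was not tested. Of those 70, 67 were called higher in R843C, 58 in A546H, 55 in K498A and 51 in DE636AA, while GA-KH had 16 and E797R 12. Through all 12 choices that left out 1 CLIP or WT library, 33 of the 96 were kept. Of these 33, all 33 were higher in R843C, 29 each in K498A and DE636AA and 28 in A546H, while E797R had 2 and GA-KH 7. Their median log2 fold changes were 0.83 in R843C, 0.59 in K498A, 0.57 in A546H, 0.55 in DE636AA, 0.12 in GA-KH and 0.10 in E797R.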

How the data were processed

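The deposited table holds expected counts per gene, as the authors estimated them with RSEM. Cutadapt, STAR, RSEM, DESeq2 and hg19 are named in the submitters' processing notes, and the annotation release and any strand setting are not given in the sources used here. Total RNA (500 ng per library, per the labels' protocols) was depleted of ribosomal RNA and sequenced paired-end. Sample names in the table matched the labels, and each of 48 columns was used.

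Expected counts were rounded and tested with edgeR 4.0.16 (limma 3.58.1, R 4.3.3): TMM scaling (factors 0.974 to 1.04), filterByExpr over 16 groups, 1 model without a replicate term, quasi-likelihood tests and Benjamini-Hochberg adjustment over 19129 genes per comparison. Standard errors are the log2 change over the root of the F statistic. The code was tested on simulated data. DESeq2 1.42.0, RLE scaling, no filter, a fit to the compared lines alone, a replicate block, left-out libraries and other selection limits were tried; the genes kept in every left-out choice and the summed WASH6P copies were added after seeing the data. CPM used column totals, and a pseudocount of 0.5 CPM entered the responses only. Features came from GENCODE 29 by gene identifier and promoters from RefSeq by symbol.

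The members and gene lists were chosen with earlier results of these data known. Named genes were UPF1, members of the lists, and, without pseudogenes other than RP9P and clone-named loci, the extremes of response, level, difference and each limit. Other named genes were chosen after their values were seen. The values of CLIP and WT chose the members and were not tested. The labels call the replicates biological, and replicate libraries differed by more than counting error, so none was taken as a repeat of another.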

Additional observations from a re-analysis of the deposited data

Results flagged for a closer look

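The responses of some of the 96 genes differed between lines under the same siRNA contrast, by a direct test of the difference in edgeR. The ATPase-motif pair was higher than the mean of GA-KH and E797R in 44 genes (5.88% of all genes were). R843C was higher than that mean in 60 (3.46%) and A546H in 9 (0.419%). R843C was higher than the ATPase-motif pair in 15 genes (4.47%). A546H was higher than that pair in 3.12% of members against 4.13% of all genes. It was lower in 1.04% against 1.69%, so its 4 calls were no more frequent than among all genes.

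In 3 members the compared lines also had calls of opposite direction. ZFAND2A, higher in the ATPase-motif lines and R843C and lower in E797R, differed from the GA-KH and E797R mean by 1.09 in the ATPase-motif pair and by 1.30 in R843C. TMEM222, lower in E797R, differed from that mean by 0.44 in the ATPase-motif pair, 0.76 in R843C and 0.54 in A546H. The E797R falls of both genes were lost when single E797R libraries were left out. TSR2, lower in K498A and DE636AA and higher in R843C, differed by 1.00 between R843C and the ATPase-motif pair, a call kept in every alternative fit that was run. Its fall in K498A was lost without siNT replicate 3 and without the filter on low counts.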

How the results depend on the processing

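No called member changed sign in any alternative fit that was run. Shares below are percentages of the members called, by alternative, where they moved by more than 1.5 times; "lower" marks falls. With DESeq2 they were 17.7 for A546H against the GA-KH and E797R mean (9.38 as reported), 6.25 lower for A546H against the ATPase-motif pair (1.04), and 10.4 for R843C siNT (5.21). RLE scaling gave 4.17 lower for A546H against the ATPase-motif pair and 1.04 for the pair's siNT (2.08). Without the filter on low counts they were 0 lower in K498A (1.04), 10.4 and 2.08 lower in GA-KH (17.7 and 0), 5.21 in E797R (15.6), 29.2 for A546H against the mean, 1.04 lower for R843C and 3.12 lower for A546H against the ATPase-motif pair, 3.12 lower for the pair's siNT (7.29), and 10.4 and 1.04 lower for R843C siNT. Fitting the compared lines alone gave 1.04 lower in GA-KH, 9.38 in E797R, 17.7 for A546H against the mean, 5.21 lower for A546H against the ATPase-motif pair, and 11.5 and 1.04 lower for R843C siNT. The cause of these moves was not tested.

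With a replicate block, the shares were 20.8 for A546H against the mean, 29.2 for R843C against the ATPase-motif pair (15.6), 7.29 and 7.29 lower for A546H against that pair (3.12 and 1.04), 1.04 lower in GA-KH and for the pair against the mean, 5.21 for the pair's siNT, 11.5 and 1.04 lower for R843C siNT, and 15.6 for A546H siNT (7.29). Same-numbered siNT and siUPF1 libraries of a line correlated above 0.1 in 15 of 24 cases (-0.007 to 0.283). A pairing was to be used where every correlation exceeded 0.1, which K498A and GA-KH met and the other 6 lines did not, and the labels name no shared batch, so the results reported are those without the block. With the block, 72 genes were called higher in K498A (67) and 19 in GA-KH (17). That 20 of 24 libraries correlated best with their own number is a hint from the data that numbers may mark something shared, and the counts under the block were mostly higher.

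With WT responses within 0.1 (54 genes) the shares were 1.85 lower in K498A and in DE636AA, 3.7 in GA-KH, 5.56 in E797R, 5.56 and 1.85 lower for A546H against the ATPase-motif pair, 9.26 for R843C siNT and 11.1 for A546H siNT. With CLIP responses of at least 1.5 (17 genes) they were 0 lower in K498A and in DE636AA, 5.88 lower in E797R (2.08), 76.5 for the pair against the mean (45.8), 5.88 for A546H against the mean, 0 and 0 lower for A546H against the pair, 0 and 0 lower for the pair's siNT and 11.8 for R843C siNT. Choosing members by edgeR folds (112 genes) gave 0.893 lower in GA-KH and 3.57 for the pair's siNT.

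Leaving out 1 library, members chosen again where it was a CLIP or WT library, gave 59.1 to 78.6 in K498A, 53.1 to 72.9 in DE636AA, 85.4 to 95.9 in R843C, 59.4 to 82.9 in A546H, 9.38 to 23.8 in GA-KH and 6.25 to 21.5 in E797R. The range was 35.6 to 52.9 for the pair and 49.2 to 71.4 for R843C against the mean, with 0 to 1.04 lower for the pair. It was 3.12 to 12.9 for A546H against the mean, 8.33 to 20.0 for R843C against the pair, and 1.04 to 5.75 and 0.758 to 4.17 lower for A546H against the pair. For siNT levels it was 0 to 4.17 and 0 to 10.0 lower for the pair, 0 to 7.14 for R843C and 1.04 to 10.0 for A546H. Of the E797R libraries alone, leaving out 1 gave at most 12.5. Choosing members again gave 3.77, 3.79, 0.952, 3.45 and 0.769 for the pair's siNT without CLIP siNT replicate 2, CLIP siUPF1 replicate 1, WT siNT replicate 1, WT siUPF1 replicate 1 and WT siUPF1 replicate 3. It gave 2.27 and 2.68 for R843C siNT without CLIP siUPF1 replicates 1 and 3, 4.46 for A546H siNT without CLIP siUPF1 replicate 3, and 1.9 lower for A546H against the pair without WT siNT replicate 1.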
